A study of Mus musculus with 9 samples.

Results

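The 10 genes described here govern how glucose enters a cell, how fast it is committed to glycolysis, and whether the resulting pyruvate is burned or leaves as lactate. They are the glucose transporter genes Slc2a1 and Slc2a3, the hexokinase genes Hk1 and Hk2, the phosphofructokinase-2 genes Pfkfb3 and Pfkfb4, the pyruvate dehydrogenase kinase genes Pdk1 and Pdk3, and the monocarboxylate transporter genes Slc16a1 and Slc16a3. They were chosen by gene symbol from 24102 rows of an expression table, with the difference between mutants and controls in these same columns already known. Their levels and differences are therefore a description, and no test is given for them. All 10 had a row, and all 10 passed the filter for tested rows, which kept 12314 rows with a value of 1 FPKM or more in at least 3 of 6 columns. FPKM counts sequenced fragments relative to transcript length and library size, so levels of different genes can be set side by side per length.

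RNA was sequenced from limb cells of mouse embryos at E12.5, sorted for green fluorescence after digestion of fresh tissue. Controls were Shox2(Cre/+);Rosa(mTmG), with Cre in 1 Shox2 allele, and mutants were Shox2(Cre/-);Rosa(mTmG), in which the other allele is mutant as well. Both groups thus carry the Cre allele and the reporter, and neither has 2 normal copies of Shox2, the gene of a homeodomain factor of the proximal limb. The reporter marks cells in which Cre was made from the Shox2 locus, and their descendants, so a sorted cell need not still have used that locus. The table holds 3 control and 3 mutant columns, 1 of each from litters 1, 2 and 3, and the 2 wild-type whole limb samples were not analysed here. Litter 1 had 2 mutant samples, and the sources used here do not say which of them, or whether both, its mutant column holds. The number of embryos behind a column is not given either, so the spread between columns may be partly technical. Both columns of litter 1 stood apart from the rest along the main axis of variation, which carried 61.5% of the variance. In litter 3 the mutant kept 46.2% of its control's Shox2 level, against 7.68% and 8.25% in litters 1 and 2, so the main differences are also given without that litter.

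Glucose crosses the plasma membrane through facilitative transporters of the Slc2a family and is trapped inside the cell when a hexokinase adds a phosphate. Pfkfb enzymes set the level of fructose 2,6-bisphosphate, the strongest activator of phosphofructokinase-1, the enzyme at the committed step of glycolysis. Pyruvate dehydrogenase kinases switch off the complex that feeds pyruvate to the mitochondria, and monocarboxylate transporters carry lactate and pyruvate across the membrane together with a proton. Several of these genes are textbook targets of the hypoxia-inducible factors, which bind DNA at the core letters ACGTG or GCGTG, and limb cartilage forms in tissue that blood vessels leave.

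The promoters of 6 of the genes are shown because their letters can be read against the levels that follow. The sequences are from RefSeq on GRCm38.p6, each the 150 bases just before an annotated start site, 5′ to 3′ on the strand of the gene. Capitals mark each ACGTG or GCGTG core on either strand, so that a core on the opposite strand reads CACGT or CACGC. The Slc2a1 window is chr4:119108595-119108744 (plus strand), the Slc16a3 window chr11:120948917-120949066 (plus), the window of the more upstream Pfkfb3 start chr2:11553930-11554079 (minus), and the Hk2 window chr6:82774455-82774604 (minus). The window of the first Pdk1 start is chr2:71873074-71873223 (plus), and Slc16a1, whose level hardly differed between the groups, is shown beside them at chr3:104638514-104638663 (plus).
Slc2a1: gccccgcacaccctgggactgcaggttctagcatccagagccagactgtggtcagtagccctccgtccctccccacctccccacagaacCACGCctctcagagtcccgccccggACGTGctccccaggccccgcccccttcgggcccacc
Slc16a3: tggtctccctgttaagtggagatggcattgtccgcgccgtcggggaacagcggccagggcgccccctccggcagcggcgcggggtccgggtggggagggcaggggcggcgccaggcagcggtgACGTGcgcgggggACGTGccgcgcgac
Pfkfb3: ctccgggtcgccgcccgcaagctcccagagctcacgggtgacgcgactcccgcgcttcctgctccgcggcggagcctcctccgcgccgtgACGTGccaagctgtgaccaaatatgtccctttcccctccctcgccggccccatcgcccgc
Hk2: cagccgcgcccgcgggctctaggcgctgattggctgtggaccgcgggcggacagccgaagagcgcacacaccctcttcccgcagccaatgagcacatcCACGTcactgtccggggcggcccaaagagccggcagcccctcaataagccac
Pdk1: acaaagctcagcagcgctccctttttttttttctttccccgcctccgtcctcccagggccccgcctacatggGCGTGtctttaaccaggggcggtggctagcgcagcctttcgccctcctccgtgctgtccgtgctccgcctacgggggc
Slc16a1: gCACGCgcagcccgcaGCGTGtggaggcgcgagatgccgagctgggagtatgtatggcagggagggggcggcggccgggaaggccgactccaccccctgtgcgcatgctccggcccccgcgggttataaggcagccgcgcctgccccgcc

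Counting from the start site, Slc2a1 holds ACGTG at -36 to -32 and GCGTG on the opposite strand at -61 to -57, Slc16a3 holds it at -27 to -23 and again at -14 to -10, and Pfkfb3 holds it at -60 to -56. Hk2 holds it on the opposite strand at -52 to -48 and, beyond the printed stretch, at -226 to -222. Pdk1 holds GCGTG at -78 to -74 and again across its start site. Slc16a1 holds GCGTG at -149 to -145 and at -134 to -130, and ACGTG outside the printed stretch on both strands around -200 and at 21 to 25. Over the full 300-base windows (250 bases before and 50 after a start), 8 of the 12 windows of 9 of these genes held ACGTG, 7 held GCGTG and 10 held either. Among the 32851 windows of all genes the shares were 19.6%, 32.4% and 43.8%, and among the 11847 windows of tested genes 25.4%, 51.4% and 62.7%. A match is a description of letters and not a binding site, and windows of 1 gene are not independent.

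Genes with a small difference between the groups hold cores as well. Pdk3 has GCGTG at -163 to -159, -104 to -100 and -67 to -63 and ACGTG at -53 to -49. Hk1 has cores around the second of its 2 start sites only, and Pfkfb4 has 1 GCGTG at -117 to -113.

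Slc2a1 encodes GLUT1, the basal glucose transporter of most embryonic and dividing cells. Its level was 31.8, 42.4 and 31.3 FPKM in the controls of litters 1, 2 and 3 and 85.9, 174 and 62.7 FPKM in the mutants. Every mutant column lay above every control column, and the litter 2 mutant stood highest. The mutant level was 2.70, 4.09 and 2.01 times that of its own litter's control. On the log2(FPKM + 1) scale, used for all differences below, the mutant minus control difference was 1.47 ± 0.52 (SD over 3 litters), which ranked 23rd from the top among the rows tested.

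Slc2a3 encodes GLUT3, a transporter of high affinity best known from neurons. Controls were at 12.8, 18.4 and 12.3 FPKM and mutants at 22.4, 32.7 and 21.8 FPKM. The difference was nearly the same in each litter, at 0.76, 0.80 and 0.78, a mean of 0.78 ± 0.02, and no mutant overlapped a control. Within litters the ratio of mutant to control was 1.75, 1.78 and 1.77. Litter 2 was the highest litter in both genotypes, so the spread of Slc2a3 lay between litters and not in the size of the difference.

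Together the 2 transporters summed to 49.6 ± 9.64 FPKM in the controls (SD, n = 3) and 133 ± 64.5 FPKM in the mutants. Slc2a1 made up 70.9 ± 1.05% of that sum in the controls and 79.2 ± 4.97% in the mutants. Over the 12 Slc2a genes with a row, Slc2a1 held 44.4 ± 2.95% of the summed level in the controls and 64.7 ± 8.79% in the mutants, whereas the share of Slc2a3 was 18.3 ± 2.16% and 16.7 ± 2.79%. Of the other transporters with a row, Slc2a12 had every mutant above every control, at a low level of 0.353 ± 0.235 and 0.813 ± 0.0690 FPKM. Slc2a8 was at 9.89 FPKM on average in the controls and 9.30 in the mutants, Slc2a4, the insulin-responsive transporter, at 9.12 and 9.20, and Slc2a10 at 5.53 and 4.19.

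Hexokinase 2, the inducible form found in fetal, muscle and tumour cells, is made from Hk2. It was at 14.6, 14.7 and 10.9 FPKM in the controls and 29.2, 40.0 and 19.8 in the mutants. All mutants lay above all controls, with ratios of 1.99, 2.72 and 1.82 and a difference of 1.05 ± 0.30. Hk1, the housekeeping form, was at 19.1, 24.6 and 24.3 FPKM in the controls and 21.4, 36.6 and 27.2 in the mutants. Its groups overlapped, since the litter 1 mutant lay below the controls of litters 2 and 3. The Hk1 difference was 0.16, 0.55 and 0.16 in the 3 litters, a mean of 0.29 ± 0.23.

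The balance of the 2 hexokinase genes moved with these values. Hk2 was 43.4%, 37.4% and 31.0% of the Hk1 and Hk2 sum in the controls, always below Hk1, and 57.7%, 52.2% and 42.2% in the mutants, so that it passed Hk1 in litters 1 and 2 but not in litter 3. Their summed level was 36.1 ± 2.90 FPKM in the controls and 58.1 ± 16.1 in the mutants. Hk3 was at 0.0265 FPKM on average in the controls and 0.0914 in the mutants.

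Pfkfb3 encodes the form with the highest ratio of kinase to phosphatase activity, which raises fructose 2,6-bisphosphate. Its controls were at 5.14, 10.5 and 9.97 FPKM and its mutants at 12.2, 37.7 and 18.3 FPKM. No mutant overlapped a control, although the litter 1 mutant lay only slightly above the controls of the other litters. Within litters the ratios were 2.37, 3.59 and 1.84 and the difference was 1.22 ± 0.48. Pfkfb4, a related enzyme prominent in testis and also known as a hypoxia target, was at 5.24, 4.16 and 4.43 FPKM in the controls and 4.60, 4.82 and 4.22 in the mutants. It was higher in the mutant of 1 litter of 3, the groups overlapped, and the difference was -0.01 ± 0.17.

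Pfkfb3 therefore made up 63.5 ± 12.2% of the pair in the controls and 80.9 ± 8.06% in the mutants. In the control of litter 1 the genes of the pair were about level, with Pfkfb3 at 49.5% of their sum, against 71.7% and 69.3% in litters 2 and 3. Across the 4 Pfkfb genes its share was 41.3 ± 9.53% in the controls and 61.8 ± 11.4% in the mutants, while Pfkfb2, the heart form, averaged 5.03 and 5.65 FPKM.

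**Figure D1:**
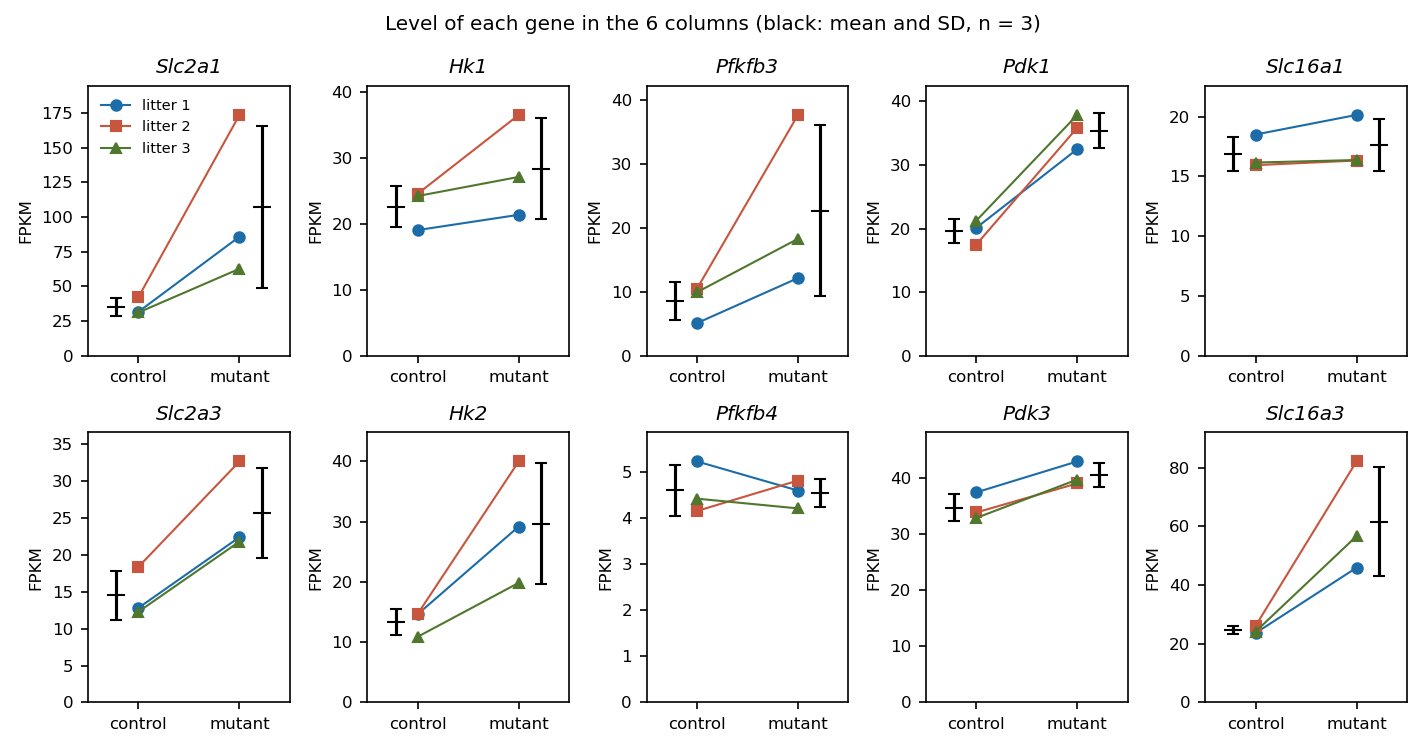
Each panel plots the FPKM of 1 gene (vertical axis from 0, scaled per gene) in the control and mutant columns; points joined by a line are 1 litter, and black bars are the mean and SD of 3 columns. Slc2a1, Slc2a3, Hk2, Pfkfb3, Pdk1 and Slc16a3 climb from control to mutant in each litter, while Pfkfb4 and Slc16a1 stay nearly level.

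Pdk1 encodes a kinase that phosphorylates and inactivates pyruvate dehydrogenase. Its controls were at 20.1, 17.5 and 21.3 FPKM and its mutants at 32.5, 35.9 and 37.9 FPKM, with a wide gap between the groups and ratios of 1.61, 2.05 and 1.78. The difference was 0.82 ± 0.17. Pdk3, an X-linked kinase of the same family, was the more abundant of the pair, at 37.4, 33.8 and 32.8 FPKM in the controls and 42.9, 39.0 and 39.7 in the mutants. The Pdk3 groups did not overlap either, but the step was small, with ratios of 1.15, 1.15 and 1.21 and a difference of 0.22 ± 0.04.

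Pdk1 was 36.1 ± 2.78% of the pair in the controls and 46.6 ± 3.08% in the mutants, still below Pdk3 in every column. Of the remaining kinases, Pdk2 averaged 15.7 FPKM in the controls and 14.9 in the mutants, and Pdk4 0.502 and 0.754 FPKM. The summed level of Pdk1 and Pdk3 was 54.3 ± 3.11 FPKM in the controls and 75.9 ± 1.42 in the mutants.

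The sex make-up of the columns touches Pdk3. In litter 2 the Y-linked gene Eif2s3y was at 23.9 FPKM in the control and listed at 0 in the mutant, and Xist, made from the inactive X chromosome, was at 34.6 and 178 FPKM, so there genotype and sex cannot be told apart. In litters 1 and 3 Eif2s3y was at 21.6 and 16.2 FPKM in the controls and 22.4 and 14.4 in the mutants, but Xist in litter 1 was at 12.1 and 36.8 FPKM. In litter 3 Xist was at 73.0 and 68.4 FPKM. The Pdk3 difference was 0.19, 0.20 and 0.27 in litters 1, 2 and 3, and the part of sex in it was not tested.

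Slc16a3 encodes MCT4, a transporter suited to lactate export from glycolytic cells. It was at 23.6, 26.1 and 24.1 FPKM in the controls, the narrowest relative spread of the 10 genes, and at 45.9, 82.1 and 56.7 FPKM in the mutants. All mutants lay far above all controls, with ratios of 1.94, 3.15 and 2.35 and a difference of 1.25 ± 0.35. Slc16a1 encodes MCT1, the widespread transporter that moves lactate in either direction. It was at 18.5, 15.9 and 16.2 FPKM in the controls and 20.1, 16.3 and 16.4 in the mutants, so the groups overlapped and the difference was 0.06 ± 0.05, although each mutant lay slightly above its own control.

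Slc16a3 thus held 59.3 ± 3.02% of the pair in the controls and 76.8 ± 6.99% in the mutants. The sum of both was 41.5 ± 1.04 FPKM in the controls and 79.2 ± 17.1 in the mutants, and nearly all of that step came from Slc16a3. In each of the 5 pairs, the gene with the larger difference had a larger share of its pair in the mutant than in the control of the same litter. That direction follows from the differences that were known when the genes were chosen, so it is no separate evidence.

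**Figure D2:**
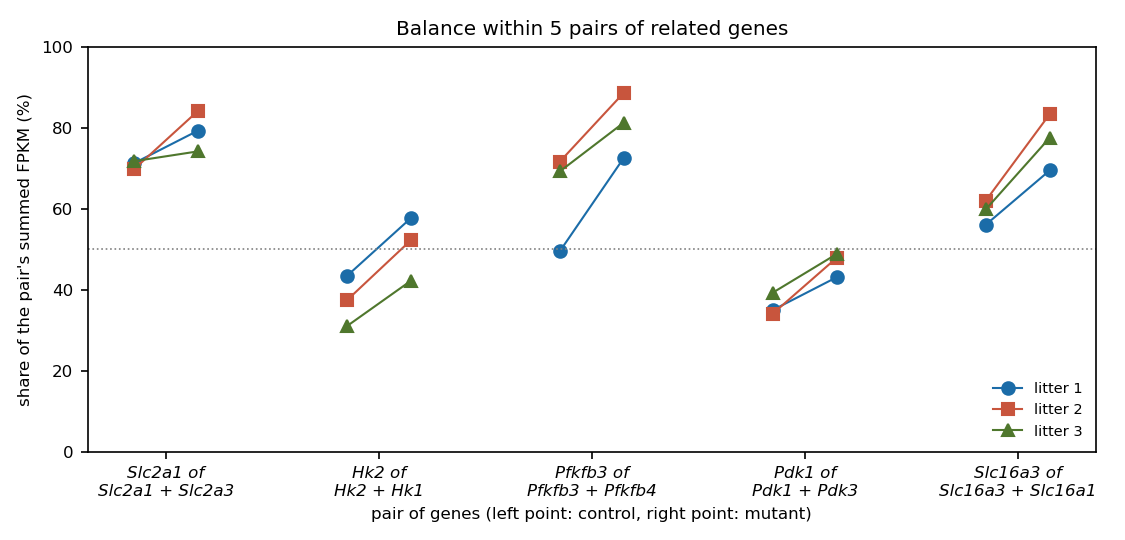
For 5 pairs of related genes, the share (%) of the first gene in the pair's summed FPKM is plotted for each litter, with the control at left and the mutant at right of each joined line. The Hk2 share crosses the dotted 50% line in litters 1 and 2, from 43.4% to 57.7% and from 37.4% to 52.2%, and the Pdk1 share stays below it.

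In the controls the order of mean levels was Slc2a1, Pdk3 (34.7 ± 2.40 FPKM), Slc16a3 (24.6 ± 1.28), Hk1 (22.7 ± 3.09), Pdk1 (19.6 ± 1.93), Slc16a1 (16.9 ± 1.42), Slc2a3 (14.5 ± 3.37), Hk2 (13.4 ± 2.17), Pfkfb3 (8.54 ± 2.96) and Pfkfb4 (4.61 ± 0.561). Slc2a1, at 35.1 ± 6.27 FPKM, and Pdk3 overlapped in their column values. Neighbours from Slc16a3 down to Hk2 overlapped too, as did Pfkfb3 and Pfkfb4. In the mutants Slc2a1 led at 107 ± 58.4 FPKM, followed by Slc16a3 at 61.6 ± 18.6 and Pdk3 at 40.5 ± 2.09, and Pfkfb4 was again lowest at 4.55 ± 0.307 FPKM. Against all tested rows the controls placed Slc2a1 at the 79.4th percentile of mean level and Pfkfb4 at the 21.8th.

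Counted over the genes, 7 of 10 had every mutant above every control, where 4.22% of all tested rows did, and 9 of 10 were higher in the mutant of all 3 litters, where 15.7% of rows were. A difference of 0.5 or more in each litter was found for 6 of 10, namely Slc2a1, Slc2a3, Hk2, Pfkfb3, Pdk1 and Slc16a3, and for 0.869% of rows. Nothing is read from these shares, because the genes were chosen with this comparison in view. The median difference of the 10 genes was 0.80, and that of all rows was -0.04. By litter the medians were 0.71, 0.90 and 0.79 for the genes and -0.07, -0.03 and 0.00 for all rows. None of the 10 genes is in the list of Shox2 repression targets that the authors deposited, which holds 7.71% of the tested rows. In these bulk samples, more cells of a type with a high level and more RNA per cell cannot be told apart.

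**Figure D3:**
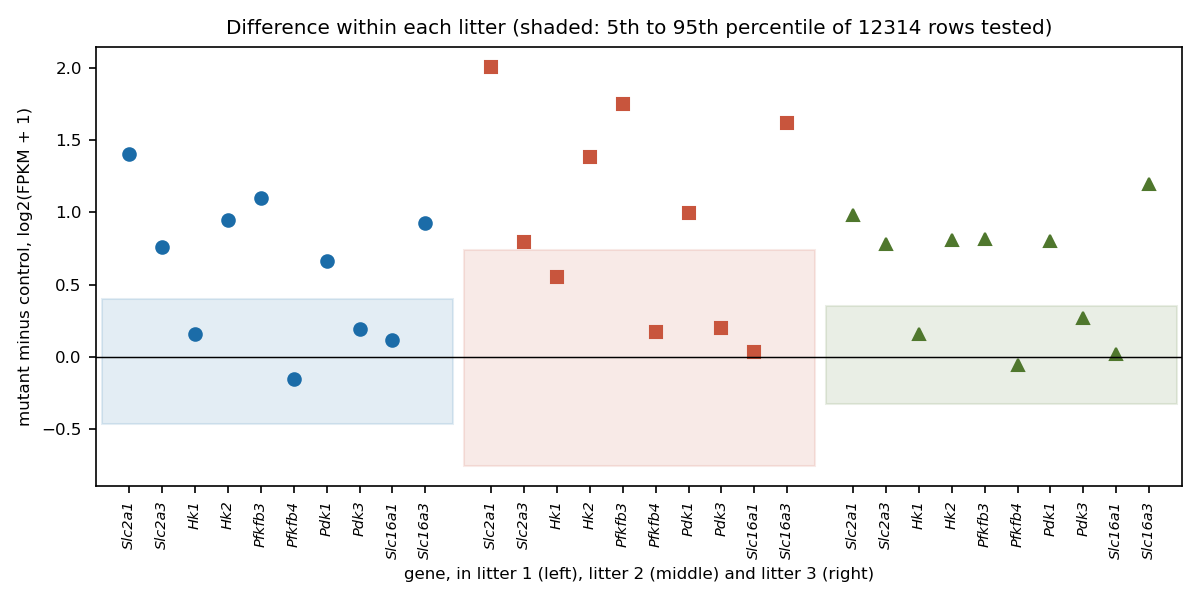
The mutant minus control difference of each gene, on the log2(FPKM + 1) scale, is plotted within litters 1, 2 and 3 from left to right, over shaded bands that span the 5th to the 95th percentile of all 12314 tested rows. Those bands run from -0.47 to 0.40, from -0.76 to 0.74 and from -0.33 to 0.35, and 6 of the 10 genes lie above the band in each litter.

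Litter 2 gave the largest difference for 8 of the 10 genes, all but Pdk3 and Slc16a1, and it also had the widest band for all rows. In that litter genotype and sex cannot be told apart for any gene, and the part of sex in these differences was not tested. Summed markers of other cell types, given below, also differed between the control and the mutant of litter 2, and their part was not tested. Relative to the other rows of the same litter, Slc2a1 ranked 27th, 46th and 53rd from the top in litters 1, 2 and 3, and Slc16a3 ranked 97th, 76th and 26th. Slc2a3 ranked 160th, 529th and 113th, so its even difference stood out less in litter 2 than elsewhere. Between the controls of the 3 litters, the range on the log2 scale was 0.91 for Pfkfb3, 0.54 for Slc2a3 and 0.43 for Slc2a1 but 0.14 for Slc16a3, beside a median of 0.47 over all rows. Litters may have been scaled separately, because the header states the normalization above each of them.

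Shox2 itself was at 217, 222 and 210 FPKM in the controls and 16.7, 18.3 and 96.9 in the mutants, with the litter 3 mutant highest among the mutants. That litter had the smallest difference of the 3 for Slc2a1 (0.98), Hk2 (0.81) and Pfkfb3 (0.82), but not for Slc16a3 (1.20) or Pdk1 (0.81 in litter 3 and 0.67 in litter 1). Without litter 3 the mean difference was 1.71 for Slc2a1, 1.17 for Hk2, 1.43 for Pfkfb3, 1.27 for Slc16a3, 0.83 for Pdk1 and 0.78 for Slc2a3. With 1 column of each genotype per litter, a relation to the remaining Shox2 level was not tested.

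Several marker lists bear on which cells were compared. Limb mesenchyme was well represented, with Prrx1 at 155 ± 43.2 FPKM in the controls and 190 ± 63.2 in the mutants, and Pitx1 at 163 ± 58.4 and 132 ± 35.3. Of 13 tested mesenchyme markers, 2 were higher and 3 lower in all 3 litters, beside 15.7% and 22.3% of all rows. The 3 lower ones were Twist2, Pitx1 and Shox2, the mutated gene itself. Cartilage markers were high as well, with Col2a1 at 468 ± 22.5 and 567 ± 143 FPKM. In all 3 litters 3 of 14 were higher (Sox5, Sox6 and Matn3) and 2 lower (Matn1 and Ihh), beside 15.7% and 22.3% of all rows. Every mutant lay above every control for Sox5 and Sox6, beside 4.22% of rows, and the groups of Matn1 and Ihh overlapped. Red cell markers, whose cells are rich in Slc2a1, summed to 491, 596 and 328 FPKM over 8 genes with a row in the controls and 716, 383 and 229 FPKM in the mutants. They were higher in the mutant of litter 1 and lower in those of litters 2 and 3. Nerve and glia markers, 12 genes, summed to 51.0, 82.4 and 33.3 FPKM in the controls and 103, 53.4 and 40.2 in the mutants, higher in the mutants of litters 1 and 3 and lower in that of litter 2. Endothelial markers, 12 genes, summed to 29.8, 37.0 and 28.7 FPKM in the controls and 22.04, 26.7 and 28.6 in the mutants, nearly level in litter 3. Erg and Egfl7, with the highest mean levels of the list, had overlapping groups. Of 6 tested, none was higher and 2 were lower in all 3 litters, beside 15.7% and 22.3% of all rows. These were Kdr, at 1.62 FPKM on average in the controls and 0.928 in the mutants, and Cldn5, at 2.3 and 0.68. For both, every mutant lay below every control, as in 5.03% of rows. Muscle markers, 14 genes, summed to 30.5, 79.9 and 52.2 FPKM in the controls and 52.2, 51.0 and 64.8 in the mutants. They were lower in the mutant of litter 2 only. Surface ectoderm markers, 11 genes, summed to 25.2, 51.1 and 28.45 FPKM in the controls and 19.8, 27.2 and 21.85 in the mutants. Leukocyte markers, 10 genes, summed to 13.1, 13.0 and 16.2 FPKM in the controls and 11.35, 22.8 and 11.8 in the mutants. The part of these cells in the levels of the 10 genes was not tested.

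Osteoblast and dissociation markers were compared as well. In both lists limma called 0 genes at an adjusted p under 0.05, with or without litter as a block, as it called 0% of all rows. The 10 osteoblast and hypertrophy genes summed to between 18.9 and 40.2 FPKM in the controls and between 7.57 and 16.8 in the mutants, and all 5 tested members were lower in 3 of 3 litters, where 22.3% of rows were. The 16 dissociation genes, all tested, had a median difference of -0.14. In all 3 litters 3 were higher and 3 lower (Junb, Egr1 and Zfp36), beside 15.7% and 22.3% of rows. Fos was at 142 ± 22.6 FPKM in the controls and 126 ± 19.3 in the mutants. Jun was at 138 ± 34.3 and 128 ± 28.6 FPKM, and Egr1 at 136.5 ± 54.6 and 104.1 ± 54.15 FPKM. Of the 6 heat-shock genes in that list, Hspa1a and Hspa1b were far higher in 2 mutants. Dnajb1, Hsp90aa1, Hsph1 and Hspa8 were each higher in the mutant of only 1 or 2 litters. Hspa1a was at 1.70, 3.57 and 0.275 FPKM in the controls and 29.2, 50.4 and 0.583 in the mutants, with overlapping groups. The part of either list in the levels of the 10 genes was not tested.

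The surrounding pathway was described by 8 lists of further genes, none of which contains the 10. In these lists limma called 0 genes at an adjusted p under 0.05, as it called 0% of all rows, and the fit with litter as a block called 0 genes and 0% as well. At an unadjusted p under 0.05, limma placed 2.21% of rows higher and 1.36% lower, and the blocked fit 5.34% higher and 6.29% lower. No single gene below is therefore said to have changed.

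Beside glucose entry, 7 genes were tested, and their median difference was -0.09. None was higher in all 3 litters, and 3 were lower in all of them, beside 15.7% and 22.3% of all rows. Slc2a10 was at 5.53 ± 0.688 FPKM in the controls and 4.19 ± 0.789 in the mutants, all mutants lower, as in 5.03% of rows (limma adjusted p = 1.00). Txnip, which encodes an inhibitor that removes glucose transporters from the membrane, was at 31.8 ± 12.9 and 26.4 ± 7.81 FPKM, with overlapping groups. At an unadjusted p under 0.05, limma had 0 of 7 in either direction, and the blocked fit 1 lower.

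Around the fructose bisphosphate step, 6 genes had a median difference of 0.07. Every mutant lay above every control for 2 of them, beside 4.22% of rows. Pfkl, the liver-type phosphofructokinase-1 gene, was at 56.2 ± 9.16 FPKM in the controls and 83.7 ± 14.6 in the mutants. Pfkp, the platelet type, was at 1.51, 1.43 and 1.62 FPKM in the controls and 3.16, 3.52 and 3.30 in the mutants, a difference of 0.78 (SE 0.14, limma adjusted p = 0.535, or 0.107 with the block). Tigar, whose product breaks down fructose bisphosphate, was at 2.90 ± 0.676 and 2.22 ± 0.116 FPKM, all mutants lower.

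The pyruvate list held dehydrogenase subunits, the remaining kinases, phosphatases, carriers and enzymes that add or remove a carboxyl group. It differed little, with a median of -0.04 over 13 tested genes, the same as that of all rows. Limma and the blocked fit placed 0 of 13 higher at an unadjusted p under 0.05, and 0 and 1 lower. That 1 was Pck2, at 14.2 ± 2.49 FPKM in the controls and 11.3 ± 1.58 in the mutants, with overlapping groups. It was lower in all 3 litters, as were 22.3% of all rows. Dlat, the acetyltransferase subunit of pyruvate dehydrogenase, was at 18.9 ± 2.62 FPKM in the controls and 16.5 ± 0.449 in the mutants. Mpc1, a subunit of the mitochondrial pyruvate carrier, was at 1.55, 0 and 3.37 FPKM in the controls and 1.72, 1.74 and 4.19 in the mutants, and the listed 0 may be a failed estimate.

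The lactate list had a median of 0.07 over 11 genes. Ldha, which encodes the lactate dehydrogenase subunit that favours lactate, was at 165, 346 and 222 FPKM in the controls and 265, 430 and 414 in the mutants. It was higher in each litter, yet the groups overlapped, and the difference of 0.63 (SE 0.33) had an adjusted p of 1.00 in limma and 0.218 with the block. Slc16a7, a monocarboxylate transporter of high affinity, was at 1.38 ± 0.307 and 2.14 ± 0.292 FPKM, and Slc16a6 at 2.07 ± 1.18 and 5.05 ± 3.05 FPKM. At an unadjusted p under 0.05 limma had 1 of 11 higher and the blocked fit 3, with 1 lower.

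Core glycolytic enzymes had a median of 0.42 over 12 genes against -0.04 over all rows, and 9 of the 12 were higher in all 3 litters, beside 15.7% of rows. Every mutant lay above every control for 3 of them, beside 4.22% of rows. Aldoa was at 222 ± 36.7 FPKM in the controls and 397 ± 108 in the mutants, a difference of 0.82 (SE 0.24, limma adjusted p = 1.00, or 0.0998 with the block). Tpi1 was at 205 ± 39.0 and 311 ± 73.9 FPKM, and Aldoc at 2.13 ± 0.363 and 3.06 ± 0.522 FPKM. At an unadjusted p under 0.05 limma had 2 of 12 higher and the blocked fit 7, with 0 lower in either.

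The hypoxia-inducible factor list, 34 tested genes of the pathway and its known targets, had a median of 0.62, and 17 of 34 had every mutant above every control, beside 4.22% of all rows. In each litter its median was above that of all rows, at 0.38, 0.86 and 0.45. P4ha1 and Plod2, which modify collagen, were at 44.4 ± 2.95 and 42.7 ± 3.01 FPKM in the controls and 77.6 ± 11.4 and 68.0 ± 6.27 in the mutants. Ankrd37 was at 4.14 ± 0.529 and 10.7 ± 3.90 FPKM. The lowest limma adjusted p in the list was 0.626, for P4ha1, or 0.0643 with the block, for Bnip3. At an unadjusted p under 0.05, limma had 18 of 34 higher and 0 lower, and the blocked fit 23 and 0. The transcript of Hif1a itself, whose product is controlled mainly by protein breakdown, was at 66.0 ± 9.62 FPKM in the controls and 69.5 ± 6.20 in the mutants. The list was drawn up with the result for these samples known, so its direction is not independent evidence.

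**Figure D4:**
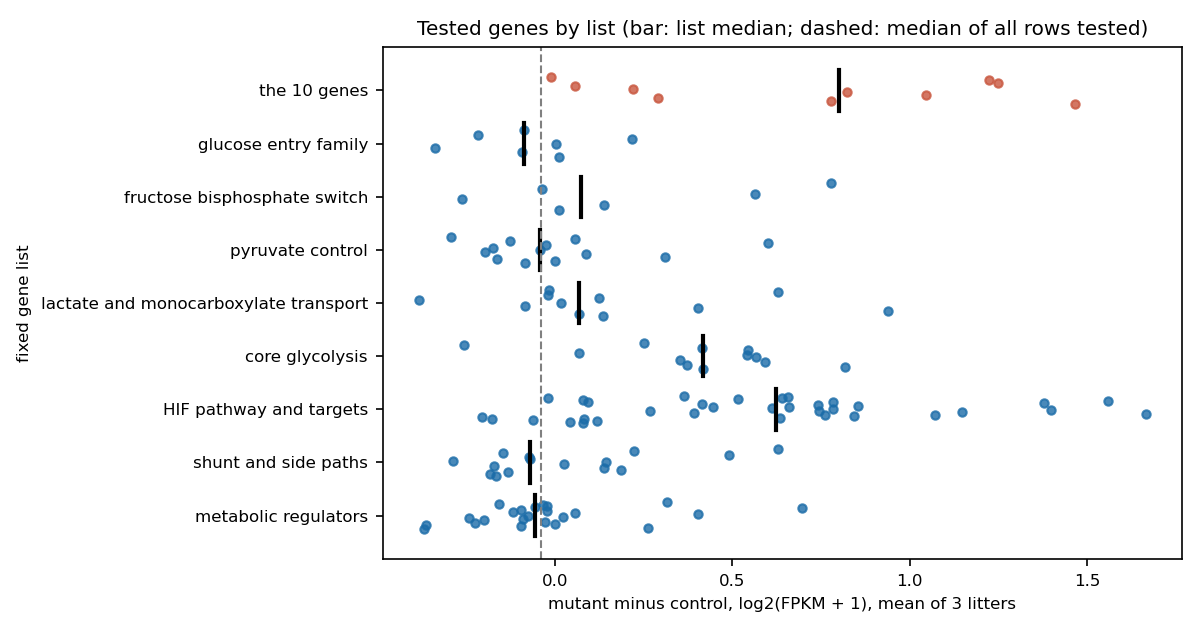
Each point is 1 tested gene, placed by its mean mutant minus control difference over 3 litters on the log2(FPKM + 1) scale, with the 10 genes at top and 8 pathway lists below. Black bars are list medians, 0.80 for the 10 genes, 0.62 for the hypoxia-inducible factor list and 0.42 for core glycolysis, and the dashed line is the median of all rows at -0.04.

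The 10 genes differed among themselves in how well they tracked their common profile over the 6 columns, which is the mean of their standardised log2 values and so includes the gene itself. Pearson's r with it was 0.98 for Hk2, 0.97 for Slc2a1, 0.96 for Slc16a3 and 0.91 for Slc2a3. It was 0.62 for Hk1, 0.22 for Slc16a1 and 0.20 for Pfkfb4. Among 9421 rows that averaged at least 5 FPKM, the 5 genes outside the set most like that profile were P4ha1 (r = 0.99), Jmjd6 (0.99), Klhl2 (0.99), Ccng2 (0.98) and Dlc1 (0.98). Jmjd6 was at 28.3 ± 1.31 FPKM in the controls and 41.7 ± 8.19 in the mutants, and Ccng2, a cyclin-like gene, at 30.7 ± 0.836 and 38.4 ± 2.93 FPKM. With 6 columns in 3 litters, which may have been scaled separately, these values are a ranking only. P4ha1 and Dlc1 are in the deposited repressed list, and the other 3 are not.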

How the data were processed

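RNA sequencing of sorted limb cells gave the deposited table. Per the submitters' processing notes, the authors used TopHat and Cuffdiff on mm9; the sources used here give neither versions nor annotation. Values were normalised by Cuffdiff's geometric method per the file headers, which state it above each litter. The deposited values were taken as FPKM, a word absent from the header. Column sums lay between 347708 and 439109 FPKM and do not measure depth, so depth and counting error are unknown.

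From these, log2(FPKM + 1) was computed and mutants were compared with controls in limma 3.58.1 (R 4.3.3) with an intensity trend and Benjamini-Hochberg adjustment at 0.05. The fit was tested on simulated data. The design was written for samples and applied to the 6 columns. Litter numbers pair the columns, as the labels mark a shared litter. Deviations from the group means correlated at 0.87, 0.57 and 0.77 within litters 1, 2 and 3, and at most at 0.17 across litters. Litter was a block in a second fit. The alternatives were another pseudocount, other row filters, quantile normalization, column weights and left-out columns.

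The members and lists were chosen with earlier results of these data known. Named genes were the 10, Shox2, up to 3 genes per pathway list with the smallest p, up to 3 per marker list with the highest mean, and the 5 most alike in pattern. Family members beside the 10, Hif1a, Bnip3, Hspa1a, Gapdh and the genes called only under an alternative were named after their values were seen. So were the other heat-shock genes and the markers Twist2, Sox5, Sox6, Matn1, Matn3, Ihh, Kdr, Cldn5, Junb and Zfp36. The deposited list holds gene symbols without values. Gene coordinates were not used here, since the annotation is of another build, and promoters carry RefSeq's own.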

Additional observations from a re-analysis of the deposited data

How the results depend on the processing

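The differences of the 10 genes had a median of 0.80. It was 0.83 with a pseudocount of 0.1, 0.84 after quantile normalization and 0.80 with the replicate block, and leaving out single columns gave 0.70 to 0.87, the lowest without mutant replicate 2. Without the pair of litter 1, 2 or 3 it was 0.84, 0.75 or 0.80. Slc16a1, at 0.06, ran from -0.039 (without mutant replicate 1) to 0.12 (without control replicate 1). Hk1, at 0.29, ran from 0.096 (without mutant replicate 2) to 0.47 (without mutant replicate 1). Pfkfb3, at 1.22, ran from 0.80 (without mutant replicate 2) to 1.57. Pfkfb4, at -0.01, ran from -0.11 (replicate block without the litter 2 pair) to 0.067 (without control replicate 1). The other 6 genes moved by less than 1.5 times. No rows were called in limma with the replicate block (0), with another pseudocount or row filter, or after quantile normalization. Column weights called 15 rows, and leaving out single columns called 0 to 1. The replicate block without the litter 2 pair called 534 of 12314 rows, 27 of them pathway genes. Without the litter 3 pair it called 36 of 12314 rows, 5 of them pathway genes (Bnip3, Ankrd37, Ndrg1, Ddit4 and Bhlhe40). The pathway lists were chosen with earlier results known, so nothing is read from those counts of pathway genes. Without the litter 1 pair the replicate block called 0 rows. These fits rest on 2 pairs and mostly on the spread pooled over rows, with rows chosen on all 6 columns, and the cause of the gap between them was not tested. Between litters, the median control range of the 10 genes was 0.31, the same after quantile normalization. Depth is unknown, so no floor could be set for low values such as those of Hk3. Gapdh, with many near-identical copies, was listed at 0.656 to 6.54 FPKM and is uncertain.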

Other observations

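Of 15 tested genes on branches that lead off glycolysis, 4 were higher and 5 lower in all 3 litters, beside 15.7% and 22.3% of all rows. These same 15 genes belong to the pentose phosphate, hexosamine, serine, glycerol and polyol paths. Their median difference was -0.07, against -0.04 for all rows. Limma called 0 of them (unadjusted p under 0.05 for 1 higher and 0 lower, or 2 and 1 with litter as a block). Gpd2, the mitochondrial glycerol phosphate dehydrogenase that passes electrons from cytosolic NADH to the respiratory chain, was at 4.99, 3.63 and 5.51 FPKM in the controls and 7.23, 7.29 and 6.32 in the mutants. Every mutant lay above every control (difference 0.49, SE 0.18, limma adjusted p = 1.00). Sord, the sorbitol dehydrogenase gene, was at 2.88 ± 1.30 and 4.82 ± 1.10 FPKM (SD over 3 columns), higher in 3 of 3 litters with overlapping groups. Phgdh, the first enzyme of serine synthesis from glycolysis, averaged 18.8 ± 3.42 FPKM in the controls (SD over 3 columns) and 15.1 ± 1.95 in the mutants, lower in 3 of 3 litters with overlapping groups.

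Regulators of metabolism likewise had a median of -0.06 over 23 genes. Of these, 4 were higher and 6 lower in all 3 litters, beside 15.7% and 22.3% of all rows. Limma called 0 of them (unadjusted p under 0.05 for 1 higher and 0 lower, or 2 and 2 with the block). Ppargc1a, a coactivator of mitochondrial genes, was at 1.07, 0.548 and 0.996 FPKM in the controls and 1.99, 1.97 and 2.07 in the mutants. Its difference was 0.70 (SE 0.17, limma adjusted p = 0.847, or 0.206 with the block). Insr, the insulin receptor gene, was at 10.9 ± 1.94 FPKM and 13.7 ± 1.42 FPKM with no overlap, and Mycn at 7.21 ± 1.19 and 8.79 ± 0.728 FPKM with overlap. Myc and Trp53, named after their values were seen, were lower in 3 of 3 litters with overlapping groups, Myc at 20.3 ± 5.46 and 15.6 ± 4.71 FPKM and Trp53 at 63.5 ± 20.7 and 48.6 ± 12.4 FPKM.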
